A study of Mus musculus with 9 samples.

Results

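The enzymes of the tricarboxylic acid (TCA) cycle and the steps by which pyruvate, ketone bodies, aspartate and glutamate enter it were followed in mouse hearts as a set of 31 nuclear-encoded genes, chosen by gene symbol. All 31 were found among the 16951 genes of the table, and all 31 passed the filter on low values that left 11902 genes for testing. Heart tissue of C57BL/6 mice was profiled by messenger RNA sequencing in 3 groups of 3 libraries each: mice given saline, mice given angiotensin II (AngII, a hormone that raises blood pressure and is used to bring on cardiac hypertrophy), and mice given AngII together with prostaglandin E1 (PGE1, a vasodilator lipid that acts on EP receptors). The mice's age and sex and the treatments' dose, route and duration are not given in the sources used here, nor is whether a library came from 1 animal or a pool, so p-values measure the spread among these libraries alone, and that spread may be technical. The library numbers 1 to 3 follow the order of a group's columns in the table and pair nothing.

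The pyruvate dehydrogenase complex turns pyruvate into acetyl-CoA, which citrate synthase joins to oxaloacetate. The cycle then oxidises citrate back to oxaloacetate and passes electrons to the respiratory chain as NADH and, through succinate dehydrogenase, directly to ubiquinone. In the adult heart most acetyl-CoA comes from fatty acids, with pyruvate, lactate and ketone bodies as further fuels, and cytosolic NADH reaches the mitochondrion mainly through the malate-aspartate shuttle. Cardiomyocytes are the cells of the heart richest in mitochondria. In bulk tissue, fewer cells of a type and less RNA per cell cannot be told apart.

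Levels are in FPKM, fragments scaled by the authors to transcript length and to the library's total, so that they can be set side by side between genes. At 1 FPKM or above were 11049 to 11970 genes per library, and the spacing of the lowest values corresponded to about 11800000 to 15100000 reads on genes per library. The 31 members together held 1.72% to 2.50% of the summed FPKM in the saline libraries, 1.28% to 1.41% with AngII and 1.94% to 2.41% with AngII and PGE1. Saline 2 and AngII+PGE1 1 stood apart from the other libraries of their groups. The members' median level, as log2(FPKM + 1) minus the saline mean of each gene, was 0.15, -0.34 and 0.14 in saline 1 to 3, -0.78, -0.65 and -0.65 in AngII 1 to 3, and -0.22, -0.069 and 0.081 in AngII+PGE1 1 to 3. Saline 2 was the lowest saline library for 24 of 31 members, and for 20 of these it still lay above all 3 AngII libraries. AngII+PGE1 1 was the lowest library of its group for 20 members, and lay above all 3 AngII libraries for 18 of them.

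Markers of the tissue were present, and the summed markers of some other cells differed between the groups. Single markers within the macrophage and fibroblast lists went both ways. The summed level of 8 cardiomyocyte markers was 62886 to 92030.0 FPKM in saline, 63455 to 88285 with AngII and 68223 to 85599 with AngII and PGE1, and none of the 8 passed the test in any comparison. Saline 2 had the highest of these 9 sums, against at most 63860.0 FPKM in saline 1 and 3. The single markers did not move together: Ryr2 (-0.80), Pln (-0.68) and Actc1 (-0.62, log2 differences) were lower in every AngII library than in every saline library, without passing, and the other 5 overlapped. Pln was higher in every AngII+PGE1 library than in every AngII library (0.74), again without passing. Of 6 macrophage markers, 4 had a positive difference with AngII, C1qa the largest (0.68). The other 2, Adgre1 (-0.96) and Csf1r (-0.19), had a negative one, where 49.9% of all genes did. C1qa was the only one of the 6 without overlap between saline and AngII, at 90.89 to 111.63 and 142.02 to 174.99 FPKM. That higher order held for 17.9% of all genes. C1qa and C1qb made up most of the macrophage sum in every library. The 6 macrophage markers summed to 195 to 280.3, 299 to 383 and 179 to 265 FPKM, with none past the threshold in any comparison. Of 3 atrial cardiomyocyte markers in the table, also with none past it, Nppa, the natriuretic peptide gene that ventricles express too under load, made up nearly all of the sum, at 84.78 to 632.1 FPKM in saline, 1390.51 to 10902.72 with AngII and 209.4 to 4176.61 with AngII and PGE1. Myl7 and Myl4 stayed at 0.29 to 5.85 FPKM, with saline and AngII overlapping. For 7 fibroblast markers the sums were 487 to 555, 523 to 1597 and 382 to 429.8 FPKM. The highest sum was that of AngII 2, where Col1a1 was at 375.52 FPKM, against 56.41 and 124.72 in AngII 1 and 3. With AngII 4 of the 7 had a positive difference and 3 a negative one, among them Col1a1 (1.54) and Tcf21 (-0.45). Of 5 fat cell markers in the table, Adipoq, Plin1, Cidec and Retn stayed under 1 FPKM in all 9 libraries and Cidea was at 27.38 to 47.44 FPKM. Of 6 skeletal muscle markers, the myosins Myh1, Myh2 and Myh4 stayed under 1 FPKM, and Ckm ranged over 1239.52 to 2309.84 FPKM. Tnnt3 was at 0.85, 5.39 and 4.96 FPKM with AngII and 0.91, 0.61 and 0.2 in saline. Its groups overlapped, and it missed the filter and was not tested. Acta1, the skeletal actin gene, was at 541.15 to 592.08 FPKM in saline, 1320.62 to 2644.05 with AngII and 120.51 to 2758.15 with AngII and PGE1, and did not pass (limma adjusted p = 0.17 for AngII against saline). Of all these marker lists, with those of endothelial, smooth muscle, lymphocyte and red cells, 2 genes passed in AngII against saline, the smooth muscle calponin Cnn1 (log2 difference 1.85) and the lymphocyte granule gene Nkg7 (log2 difference 1.10), both higher, and 0 in the other comparisons. Nkg7 was at 0.26 to 0.59 FPKM in saline and reached the filter's 1 FPKM only in libraries of mice given AngII, with or without PGE1. Of the 5 lymphocyte markers 2 were tested, and the other, Cd79a, differed by 0.0045. Cd3e, Cd3g and Ms4a1 missed the filter. Every AngII library lay above every saline library for Cd3e and Cd3g, an order that held for 17.9% of all tested genes, and Ms4a1 overlapped. The 7 smooth muscle and pericyte markers had 3 positive and 4 negative differences with AngII, with a median of -0.0067. Of the 6 endothelial markers 2 had a positive and 4 a negative difference. The pericyte marker Kcnj8 (-0.68) and the endothelial Kdr (-1.45) and Cdh5 (-0.77) were lower in every AngII library than in every saline library, without passing. That order held for 15.8% of all genes. Red cell markers summed to 101 to 965, 156 to 1466 and 107 to 7009 FPKM. For AngII+PGE1 against AngII, 5 of 8 cardiomyocyte and 4 of 4 red cell differences were positive, as were 43.2% over all genes. So were 2 of 7 fibroblast, 1 of 7 smooth muscle, 1 of 6 macrophage and 2 of 6 endothelial differences. For AngII+PGE1 against saline, 7 of 7 fibroblast and 6 of 6 endothelial differences were negative, as were 66.0% over all genes. So were 4 of 8 cardiomyocyte, 4 of 7 smooth muscle, 4 of 6 macrophage and 0 of 4 red cell differences. Long and short transcripts also behaved differently between libraries: across all tested genes the correlation of a library's deviation from the gene mean with log2 transcript length was 0.24 and 0.29 in saline 1 and 3, -0.24 in saline 2, -0.19 to -0.074 in the AngII libraries, -0.12 in AngII+PGE1 1, and 0.061 and 0.11 in the other two. Genes are not independent replicates, and the part of these marker levels in the results was not tested; a correction for transcript length and GC content is reported beside the counts it touches.

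**Figure D1:**
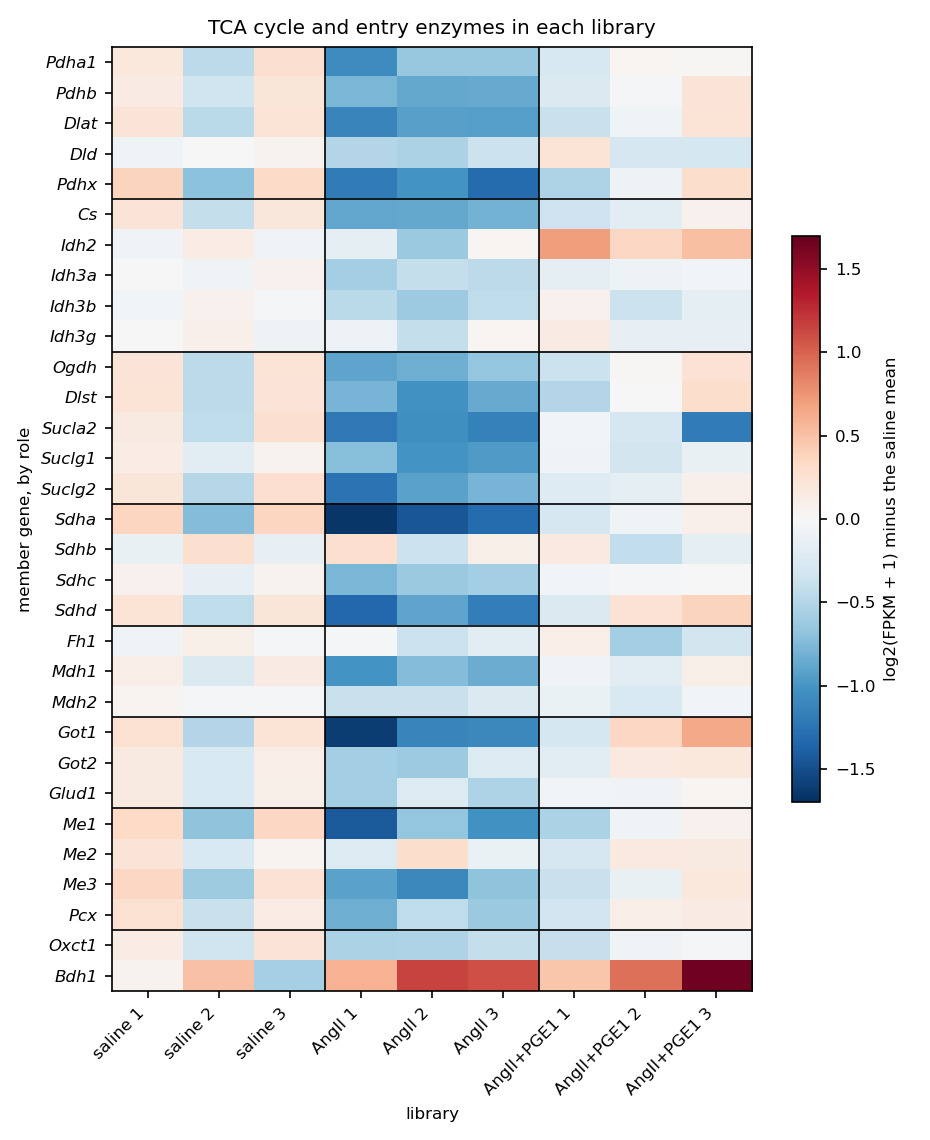
Each cell is a member's level in 1 library, as log2(FPKM + 1) minus that gene's saline mean; rows are the 31 members grouped by role and columns the 9 libraries. The AngII columns are blue for most rows, with library medians of -0.78 to -0.65, saline 2 lies between them and the other saline libraries at -0.34, and the row of Bdh1 goes the other way.

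AngII against saline compares hearts with and without the hypertrophic stimulus. Of the 31 members, 9 fell and none rose, in limma's test of log2(FPKM + 1) with Benjamini-Hochberg adjustment over all 11902 genes and a threshold of 0.05. Those that fell were the pyruvate dehydrogenase subunits Pdhb and Dlat, the succinyl-CoA ligase subunits Suclg1 and Suclg2, the succinate dehydrogenase subunits Sdha, Sdhc and Sdhd, the cytosolic malate dehydrogenase Mdh1 and the cytosolic aspartate aminotransferase Got1, by 0.66 to 1.47 on the log2 scale. Over all tested genes 1.80% were called lower and 1.31% higher. The difference was negative for 29 of the 31 members, and for 49.9% of all genes, with a median of -0.79, against a median of 0.0011 over all tested genes. All 3 AngII libraries lay below all 3 saline libraries for 22 members, which held for 15.8% of all genes. At an unadjusted p under 0.05, 24 members were lower and 1 higher, against 18.1% and 17.0% of all genes.

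The calls depended on single libraries more than the sizes did. Without saline 2, 22 members were lower and 1, Bdh1, was higher, with 20.2% of all genes called lower and 18.0% higher. Without AngII+PGE1 1, which is in neither group but enters the shared estimate of spread and the filter, 17 were lower, with 6.06% of all genes. Leaving out any one of the other 7 libraries left no member past the threshold. Of all genes, 0.119% were then called lower with AngII 1 left out, 0.0421% with AngII+PGE1 2 left out, 0.135% with AngII+PGE1 3 left out, and 0.00% when any of saline 1, saline 3, AngII 2 or AngII 3 was. The members' median difference stayed between -0.99 and -0.65 when any one library was left out. With length and GC content of the transcripts corrected for in every library, an alternative chosen after seeing the data, 12 members were lower with a median difference of -0.65, where 2.99% of all genes were called lower. The count was 1 (Suclg1) without a filter on low values, 4 with median-ratio scaling and 5 with only the AngII and saline libraries in the model, against 0.260%, 1.69% and 0.865% of all genes.

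**Figure D2:**
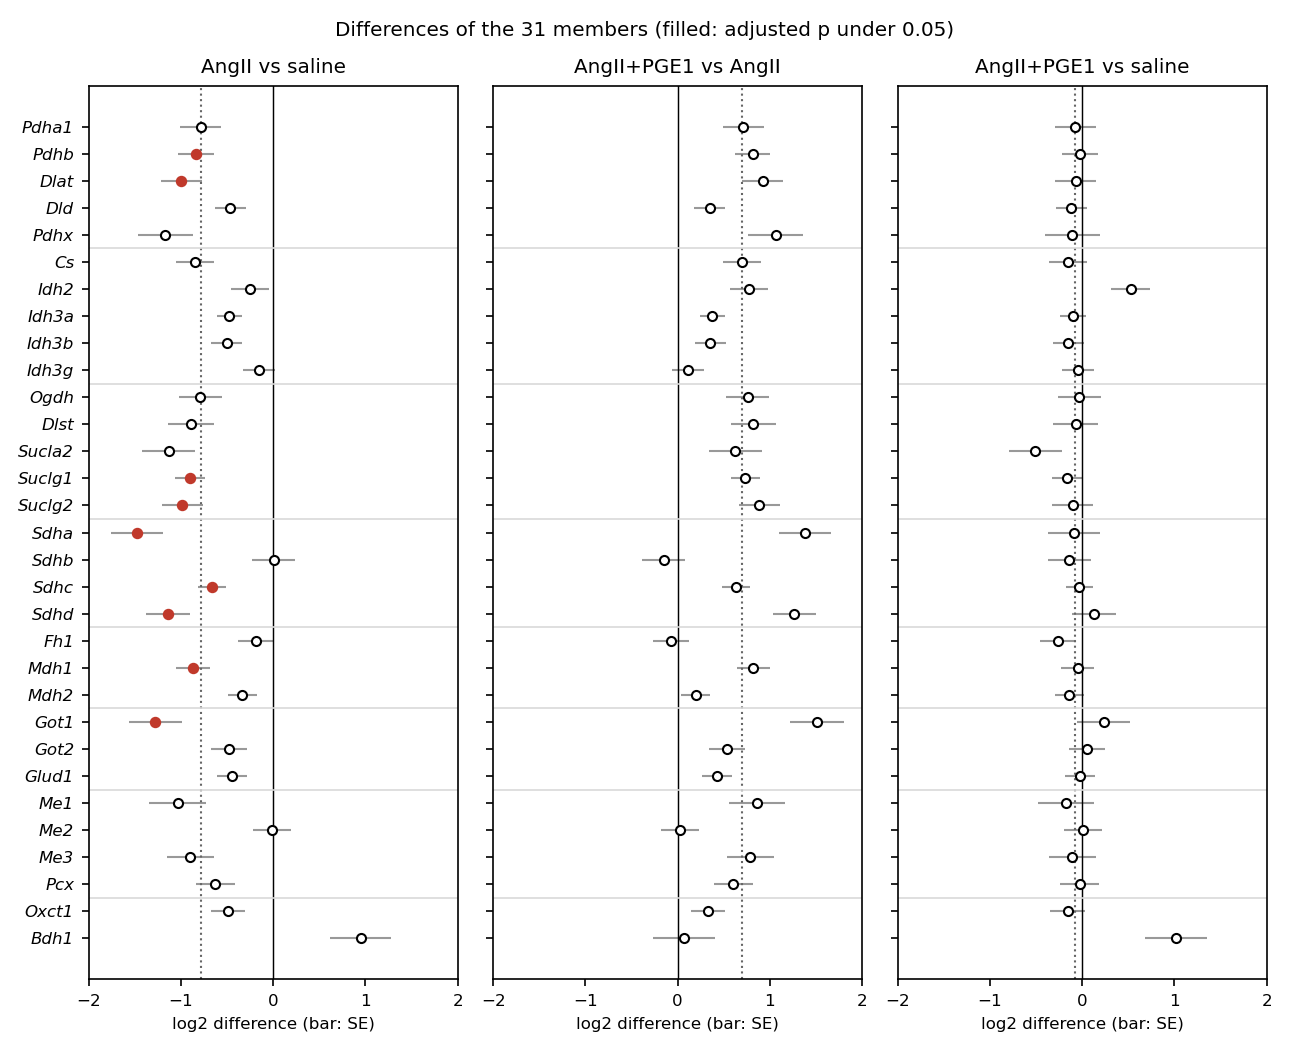
Points are the log2 differences of the 31 members with their standard errors in the 3 comparisons, filled where the adjusted p is under 0.05; dotted lines mark the members' medians of -0.79, 0.70 and -0.075. The 9 filled points are all in AngII against saline and all negative; the first and second comparisons share the AngII libraries.

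Pyruvate enters through the 3 catalytic components of the pyruvate dehydrogenase complex: E1 (Pdha1 and Pdhb), E2 (Dlat) and E3 (Dld), held together with the binding protein Pdhx. Pdhb (gene ID 68263), the E1 beta subunit, was at 541.94, 389.5 and 565.79 FPKM in saline 1 to 3, 285.81, 269.92 and 271.08 with AngII and 414.49, 481.13 and 572.29 with AngII and PGE1. The AngII libraries lay close together below all 6 others, and Pdhb fell with AngII (log2 difference -0.84, SE 0.19, limma adjusted p = 0.0487). Dlat (gene ID 235339), the dihydrolipoyl acetyltransferase core, was at 134.6, 83.96 and 135.27 FPKM in saline, 52.48, 60.39 and 59.59 with AngII and 88.4, 109.41 and 135.81 with AngII and PGE1. Its saline 2 and AngII+PGE1 1 libraries lay between the AngII libraries and the rest, and Dlat fell as well (log2 difference -0.99, SE 0.22, limma adjusted p = 0.0468). Pdha1, the E1 alpha subunit that carries the regulatory phosphorylation sites, had a mean of 337 ± 83.8 FPKM (SD, n = 3) in saline against 192 ± 30.4 (SD, n = 3) with AngII and missed the threshold (log2 difference -0.79, SE 0.22, limma adjusted p = 0.0675). Pdhx, at 68.22, 31.67 and 65.45 FPKM in saline and 20.51 to 25.19 with AngII, had the largest difference of the 5 genes and did not pass either (log2 difference -1.17, SE 0.30, limma adjusted p = 0.0575), with saline 2 nearer to the AngII range than to saline 1 and 3. Dld, which the pyruvate and 2-oxoglutarate complexes share, had the smallest difference, -0.46 (limma adjusted p = 0.0971), at 115.91 to 126.52 FPKM in saline and 83.78 to 94.46 with AngII.

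The steps from acetyl-CoA to 2-oxoglutarate held no member past the threshold. Citrate synthase (Cs), which condenses acetyl-CoA with oxaloacetate, was at 900.19, 584.93 and 880.79 FPKM in saline, 420.79, 424.76 and 442.4 with AngII and 605.49, 682.16 and 817.46 with AngII and PGE1. The AngII libraries were the lowest 3 of the 9, and the difference missed the threshold (log2 difference -0.85, SE 0.21, limma adjusted p = 0.0524). The NAD-dependent isocitrate dehydrogenase is a complex of a catalytic subunit (Idh3a) with 2 others (Idh3b and Idh3g), and the differences of the 3 genes were -0.47, -0.50 and -0.15 (limma adjusted p = 0.0702, 0.0821 and 0.533). The groups did not overlap for Idh3a, at 260.23 to 284.79 FPKM in saline and 181.18 to 205.17 with AngII, or for Idh3b, and overlapped for Idh3g, at 475.24 to 535.68 and 383.79 to 520.52 FPKM. Idh2, the NADP-dependent mitochondrial enzyme, was the most abundant of the 4 isocitrate dehydrogenase genes listed here in every library, at 1021.44 to 1161.39 FPKM in saline and 688.13 to 1093.54 with AngII, and its groups overlapped (log2 difference -0.25, SE 0.21, limma adjusted p = 0.392).

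From 2-oxoglutarate to succinate all 5 members lay lower in every AngII library than in every saline library. This order held for 22 of the 31 members and 15.8% of all genes. The ligase that turns succinyl-CoA into succinate pairs an alpha subunit (Suclg1) with a beta subunit that makes either ATP (Sucla2) or GTP (Suclg2). Suclg1 (gene ID 56451) was at 315.5, 251.88 and 299.91 FPKM in saline, 173.36, 141.98 and 147.6 with AngII and 277.17, 231.75 and 262.86 with AngII and PGE1. Its saline 2 library was nearer to the other saline libraries than to the AngII libraries, and Suclg1 had the smallest adjusted p of the 31 members (log2 difference -0.90, SE 0.16, limma adjusted p = 0.0403). Suclg2 (gene ID 20917) was at 59.14, 36.36 and 62.74 FPKM in saline, 20.96, 26.8 and 29.21 with AngII and 43.82, 45.63 and 54.35 with AngII and PGE1, with saline 2 the nearest saline library to the AngII range, and fell (log2 difference -0.99, SE 0.22, limma adjusted p = 0.0468). Sucla2, at 197.61, 131.37 and 213.17 FPKM in saline and 75.64, 85.54 and 79.49 with AngII, missed the threshold (log2 difference -1.13, SE 0.29, limma adjusted p = 0.0575). For the 2-oxoglutarate dehydrogenase components Ogdh (E1) and Dlst (E2) the differences were -0.79 and -0.89 (limma adjusted p = 0.0709 and 0.0646). Ogdh ranged over 571.84 to 914.32 FPKM in saline and 419.5 to 494.1 with AngII.

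Succinate dehydrogenase, which is also respiratory complex II, had 3 of its 4 subunit genes past the threshold. Its flavoprotein (Sdha) and iron-sulfur subunit (Sdhb) form the catalytic head, and Sdhc and Sdhd anchor it in the inner membrane. Sdha (gene ID 66945) was at 565.5, 262.83 and 565.79 FPKM in saline, 138.25, 159.23 and 175.83 with AngII and 357.97, 417.58 and 463.61 with AngII and PGE1. Saline 2 stood between the AngII libraries and the other saline libraries, and the fall was the largest among the members (log2 difference -1.47, SE 0.28, limma adjusted p = 0.0411), to 34.0% of the saline mean. Sdhd (gene ID 66925), at 283.75, 177.69 and 277.89 FPKM in saline, 95.02, 128.81 and 106.31 with AngII and 203.48, 287.15 and 314.37 with AngII and PGE1, fell. Sdhc (gene ID 66052), at 616.99, 532.74 and 613.76 FPKM in saline, 341.82, 377.35 and 393.93 with AngII and 565.42, 571.06 and 585.83 with AngII and PGE1, fell too. Their log2 differences were -1.14 (SE 0.24, limma adjusted p = 0.0448) and -0.66 (SE 0.15, limma adjusted p = 0.0471), and in both genes the AngII libraries were the lowest 3 of the 9. The iron-sulfur subunit gene Sdhb did not pass. It was at 969.03, 1268.55 and 953.16 FPKM in saline, 1289.66, 821.05 and 1126.37 with AngII and 1177.96, 792.23 and 936.29 with AngII and PGE1, with all 3 groups overlapping (log2 difference 0.0085, SE 0.23, limma adjusted p = 0.982). The highest Sdhb levels were those of AngII 1, saline 2 and AngII+PGE1 1, which are the lowest libraries of their groups for Sdha. The log2 ratio of Sdhb to Sdha was 0.78, 2.27 and 0.75 in saline, 3.22, 2.37 and 2.68 with AngII and 1.72, 0.92 and 1.01 with AngII and PGE1. Saline 2, at 2.27, lay just below the AngII range and far from saline 1 and 3. The median transcript length was 1142 bases for Sdhb and 2900 for Sdha, and these ratios are not corrected for length. Sdhd, which fell, is short too, at 1231 bases. The correlation with transcript length given above was negative in saline 2, AngII+PGE1 1 and all AngII libraries. The part of length in the ratios, and whether Sdhb and Sdha differed in their response, was not tested.

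**Figure D3:**
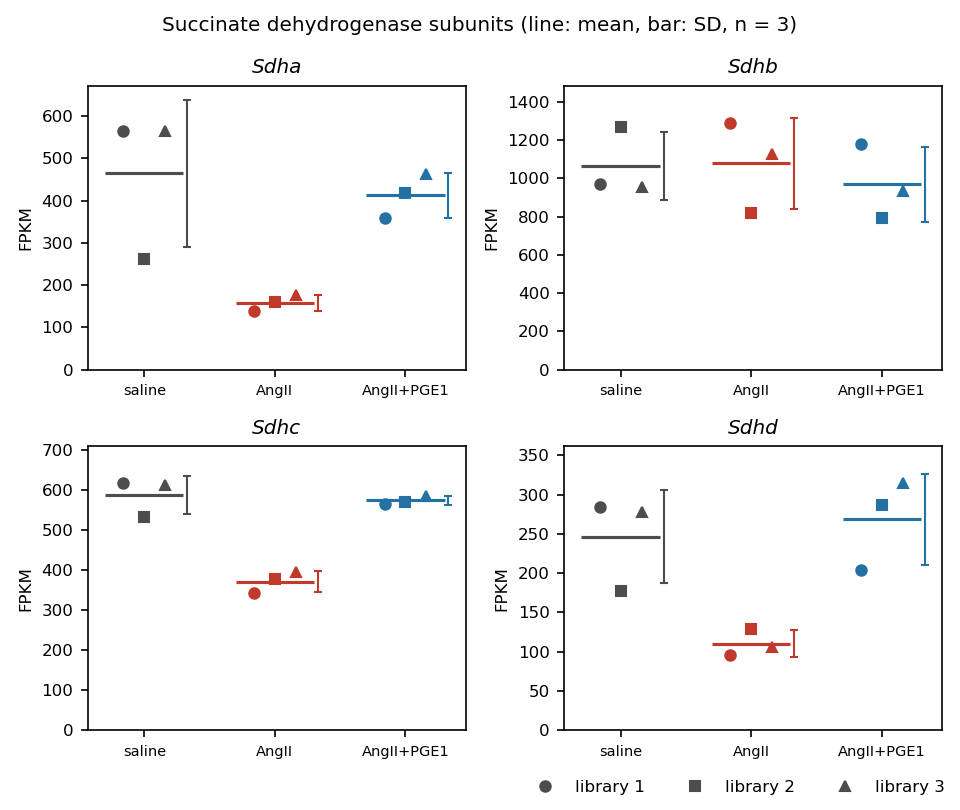
FPKM of the 4 succinate dehydrogenase subunit genes in each library, with symbols for libraries 1 to 3 of a group, a line at the mean and a bar for the SD (n = 3). Sdha, Sdhc and Sdhd are lowest in the 3 AngII libraries, Sdha at 138.25 to 175.83 FPKM, whereas Sdhb overlaps between the groups.

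The start regions of these subunits are shown because they encode one complex, of which Sdha and Sdhd fell and Sdhb did not pass. Each window holds 250 bases before and 50 after the annotated start, 5′ to 3′ on the gene's strand, from RefSeq on GRCm38.p6, and capitals mark matches to the motifs searched. Of the 4 genes, Sdha, Sdhb and Sdhd had a window in the table.
Sdha, chr13:74350191-74350490, minus strand: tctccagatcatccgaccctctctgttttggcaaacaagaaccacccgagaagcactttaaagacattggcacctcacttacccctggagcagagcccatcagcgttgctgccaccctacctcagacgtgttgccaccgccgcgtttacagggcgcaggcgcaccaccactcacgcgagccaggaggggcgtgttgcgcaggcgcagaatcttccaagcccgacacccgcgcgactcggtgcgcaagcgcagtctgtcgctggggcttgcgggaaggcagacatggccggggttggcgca
Sdhb, chr4:140961021-140961320, plus strand: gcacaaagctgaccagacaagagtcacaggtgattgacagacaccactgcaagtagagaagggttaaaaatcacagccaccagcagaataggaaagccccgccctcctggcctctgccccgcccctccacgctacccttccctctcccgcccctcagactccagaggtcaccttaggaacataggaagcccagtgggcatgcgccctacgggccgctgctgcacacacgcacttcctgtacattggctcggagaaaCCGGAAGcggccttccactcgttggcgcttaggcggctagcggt
Sdhd, chr9:50603800-50604099, minus strand: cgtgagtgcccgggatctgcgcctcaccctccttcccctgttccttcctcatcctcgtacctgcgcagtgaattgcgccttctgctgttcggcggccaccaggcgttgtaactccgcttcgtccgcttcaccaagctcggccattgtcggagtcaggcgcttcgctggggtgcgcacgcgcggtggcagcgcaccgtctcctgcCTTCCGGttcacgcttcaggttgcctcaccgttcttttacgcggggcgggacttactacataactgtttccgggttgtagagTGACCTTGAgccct
The capitals in the Sdhb window are CCGGAAG, the core bound by ETS factors such as GABPA, and those in the Sdhd window are the same core and TCAAGGTCA, the extended site of estrogen-related receptors, both read on the opposite strand. The Sdha window held none of the 5 motifs. Windows were found for 28 of the 31 members, in some cases several per gene, and both strands were searched. TCAAGGTCA was in 1 of the 28 genes (3.57%, Sdhd), against 0.467% of all genes with a window and 0.328% of the tested ones. Its core AAGGTCA, which the longer form contains, was in 3 (Got1, Ogdh and Sdhd; 10.7%), against 5.39% and 3.9% of the same sets. CCGGAAG was in 6 (Dlst, Glud1, Idh3b, Idh3g, Sdhb and Sdhd; 21.4%), against 9.92% and 20.2%. The palindromic cAMP response element TGACGTCA was in 2 (Mdh2 and Ogdh; 7.14%), against 2.03% and 3.47%, and the palindromic NRF1 site in 0, against 1.07% and 2.3%. These are matches of letters in a short window and say nothing of binding.

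Fumarate hydratase and malate dehydrogenase close the cycle, and malate and aspartate also carry reducing equivalents between cytosol and mitochondrion. Mdh1 (gene ID 17449), the cytosolic malate dehydrogenase, was at 1078.17, 841.48 and 1097.84 FPKM in saline, 491.06, 596 and 557.82 with AngII and 959.27, 875.4 and 1073.37 with AngII and PGE1. No AngII library reached 841.48 FPKM, the lowest level in the other 2 groups, and Mdh1 fell (log2 difference -0.87, SE 0.18, limma adjusted p = 0.0435). Got1 (gene ID 14718), the cytosolic aspartate aminotransferase, was at 491.27, 291.9 and 483.71 FPKM in saline, 133.86, 187.44 and 191.99 with AngII and 334.9, 524.74 and 641.83 with AngII and PGE1. AngII 1 was the lowest of the 9 libraries and AngII+PGE1 3 the highest, and Got1 fell with AngII (log2 difference -1.28, SE 0.29, limma adjusted p = 0.0471). The mitochondrial partners had smaller differences that did not pass: Mdh2, one of the most abundant members at 1405.33 to 1477.76 FPKM in saline and 1094.69 to 1204.37 with AngII, differed by -0.33 (SE 0.16, limma adjusted p = 0.159), and Got2, at 570.56 to 756.65 and 444.42 to 579.23 FPKM, by -0.48 (SE 0.19, limma adjusted p = 0.117). Within a library, the log2 ratio of Mdh1 to Mdh2 was -0.45, -0.74 and -0.36 in saline, -1.17, -0.88 and -1.11 with AngII and -0.46, -0.45 and -0.37 with AngII and PGE1. That of Got1 to Got2 was -0.62, -0.97 and -0.61 in saline, -1.78, -1.25 and -1.59 with AngII and -0.85, -0.55 and -0.27 with AngII and PGE1. For both pairs the 3 AngII libraries had the 3 lowest ratios of the 9. Among other pairs of members looked at, the AngII libraries had the lowest ratios of Me1 to Me2 and the highest of Me2 to Me3. Saline and AngII overlapped for Idh3b to Idh3a (means 1.22 and 1.19), Pdhb to Pdha1 (0.58 and 0.53), Me1 to Me3 (0.75 and 0.62) and Idh3g to Idh3a (0.90 and 1.22). These ratios are given without a test. Fumarate hydratase (Fh1), at 293.46, 327.41 and 300.02 FPKM in saline and 301.69, 238.88 and 270.49 with AngII, overlapped (log2 difference -0.19, SE 0.20, limma adjusted p = 0.497), and glutamate dehydrogenase (Glud1), at 41.17 to 54.82 and 32.41 to 41.95 FPKM, differed by -0.45 (limma adjusted p = 0.0948).

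**Figure D4:**
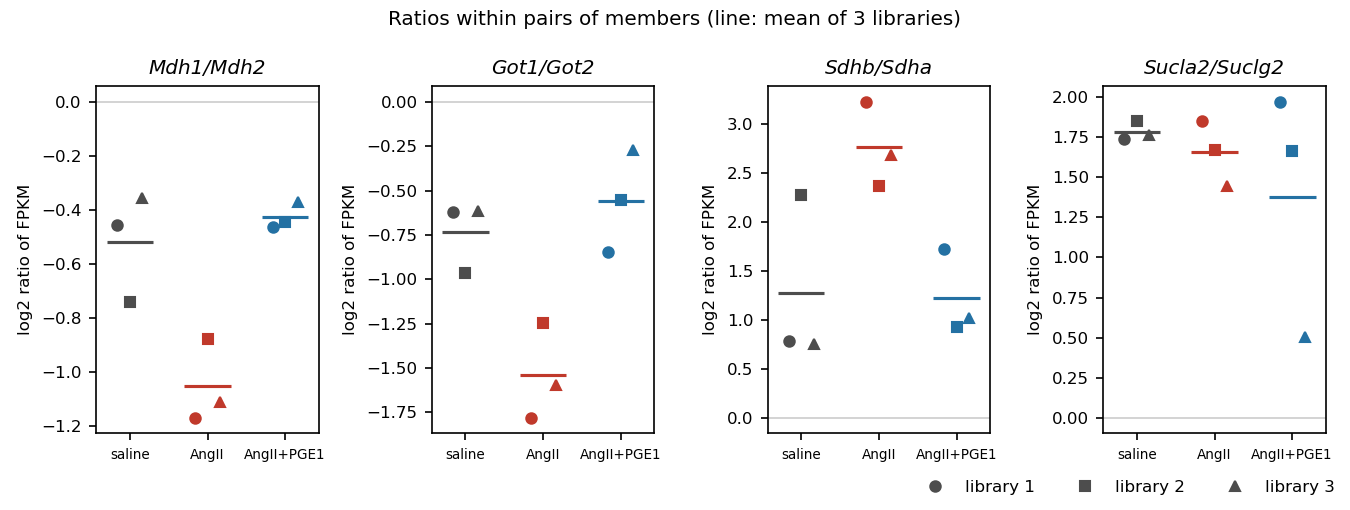
Log2 ratio of the FPKM of 2 members within each library, for 4 pairs; lines are means of 3 libraries. The AngII libraries have the lowest ratios of Mdh1 to Mdh2 (-1.17 to -0.88) and of Got1 to Got2, and the highest of Sdhb to Sdha, while Sucla2 to Suclg2 overlaps, with AngII+PGE1 3 apart at 0.50.

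Malic enzymes and pyruvate carboxylase exchange carbon between pyruvate and the cycle, and none of their 4 genes passed. The cytosolic NADP-dependent malic enzyme Me1 was at 70.35, 34.25 and 70.84 FPKM in saline and 20.01, 34.99 and 26.78 with AngII. AngII 2 lay above saline 2, so the groups overlapped (log2 difference -1.03, SE 0.31, limma adjusted p = 0.0712). Me3, the mitochondrial NADP-dependent form, did not overlap, at 21.44 to 42.43 and 15 to 20.12 FPKM (log2 difference -0.90, SE 0.26, limma adjusted p = 0.069). Me2, the mitochondrial NAD-dependent form, was the least abundant member, at 2.37 to 4.04 FPKM over all 9 libraries, or roughly 79 to 146 reads, and its difference was -0.015 (limma adjusted p = 0.964). Pyruvate carboxylase (Pcx), which makes oxaloacetate from pyruvate, ranged over 5.97 to 9.87 FPKM in saline and 4.12 to 5.77 with AngII (log2 difference -0.63, SE 0.21, limma adjusted p = 0.0858).

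Of the ketone enzymes, one lay lower and one higher with AngII, and neither passed. Oxct1, the succinyl-CoA transferase that commits ketone bodies to oxidation, was at 298.11 to 438.59 FPKM in saline and 258.7 to 285.15 with AngII without overlap (log2 difference -0.49, SE 0.19, limma adjusted p = 0.106). Bdh1 (gene ID 71911), the 3-hydroxybutyrate dehydrogenase, was at 24.46, 33.37 and 15.55 FPKM in saline, 35.84, 53.25 and 51.01 with AngII and 32.66, 45.44 and 75.55 with AngII and PGE1. All 3 AngII libraries lay above all 3 saline libraries, which held for 17.9% of all genes, and Bdh1 was the only member of the 31 with that order (log2 difference 0.95, SE 0.33, limma adjusted p = 0.0905; adjusted p from 0.0231 to 0.321 over the alternatives, the lowest without saline 2).

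**Figure D5:**
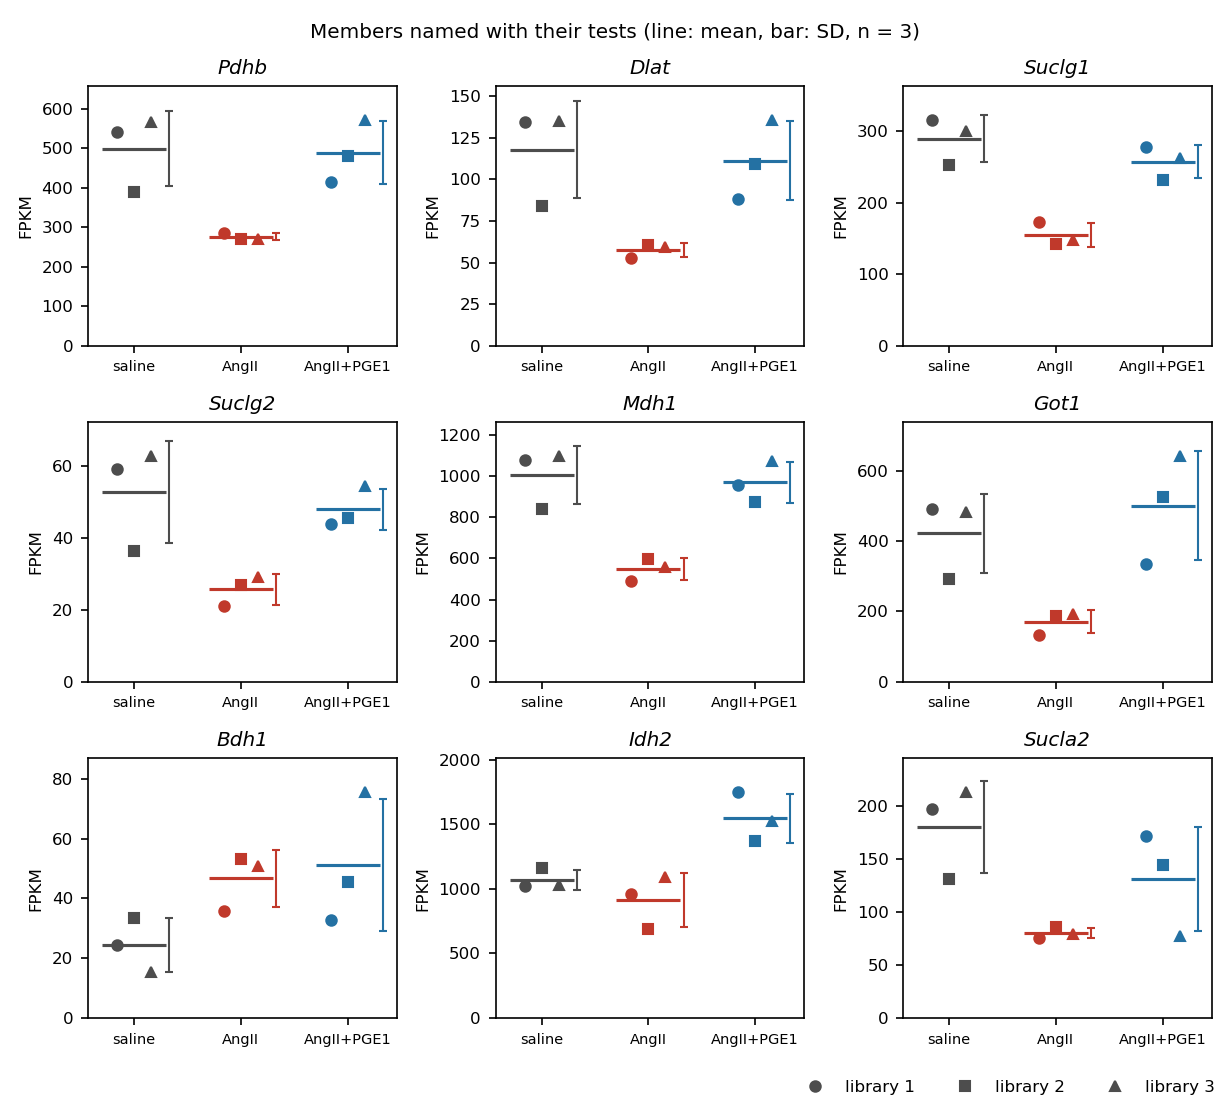
FPKM of 9 members in each library, with symbols for libraries 1 to 3 of a group, a line at the mean and a bar for the SD (n = 3). Pdhb, Dlat, Suclg1, Suclg2, Mdh1 and Got1 are lowest in the AngII libraries, Bdh1 is at 35.84 to 53.25 FPKM with AngII against 15.55 to 33.37 in saline, Idh2 is highest with added PGE1, and Sucla2 has 1 AngII+PGE1 library, at 76.99 FPKM, among the AngII libraries.

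AngII+PGE1 against AngII compares hearts with and without the prostanoid among mice that all received AngII. No member passed the threshold, where 0.202% of all genes were called higher and 0.202% lower. The differences were positive for 29 of the 31 members, and for 43.2% of all genes, with a median of 0.70 against -0.079 over all tested genes. All 3 AngII+PGE1 libraries lay above all 3 AngII libraries for 24 members, and below them for 0, against 16.3% and 19.7% of all genes. At an unadjusted p under 0.05, 21 members were higher and 0 lower, against 13.1% and 20.5% of all genes. This comparison and the previous one use the same AngII libraries with opposite sign, so their differences are not independent.

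The 6 members of smallest p were Sdhd, Got1, Sdha, Mdh1, Suclg1 and Pdhb, whose levels in every library are given above. Sdhd, at 110.0 ± 17.2 FPKM (SD, n = 3) with AngII and 268 ± 57.8 (SD, n = 3) with added PGE1, differed by 1.27 (SE 0.24, limma adjusted p = 0.0525). Got1 had the largest difference, 1.51 (SE 0.29, limma adjusted p = 0.0525), with means of 171 ± 32.3 and 500.5 ± 155 FPKM (SD, n = 3 each). For Sdha, Mdh1, Suclg1 and Pdhb the differences were 1.38, 0.82, 0.74 and 0.81 (limma adjusted p = 0.0557, 0.0566, 0.0566 and 0.059). In each of these 6 genes the 3 libraries with PGE1 lay above the 3 AngII libraries, as in 24 of the 31 members and 16.3% of all genes. The 6 were chosen by their p in this same comparison, so this order adds nothing to the tests. Median differences by role were 0.81 for the 5 pyruvate entry genes, 0.38 for the 5 from citrate to 2-oxoglutarate, 0.76 for the 5 from 2-oxoglutarate to succinate and 0.95 for the 4 succinate dehydrogenase genes. They were 0.20 for the 3 fumarase and malate dehydrogenase genes and 0.53 for the 3 of aspartate and glutamate. For the 4 malic enzyme and pyruvate carboxylase genes the median was 0.70, and for the 2 ketone genes 0.20. Sdhb and Fh1 had negative differences, -0.15 and -0.07, and Bdh1 and Me2 differed by 0.068 and 0.025; the groups overlapped in all 4.

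The count of 0 depended on which libraries shared the model. With only the AngII and AngII+PGE1 libraries 10 members were higher (Pdhb, Dlat, Pdhx, Suclg1, Suclg2, Sdha, Sdhd, Mdh1, Got1 and Me3), where 3.13% of all genes were called higher. Without AngII+PGE1 1 the count was 18, with 9.24% of all genes, and without saline 2, which is in neither group, it was 18 as well, with 9.20%. Median-ratio scaling, which moved the median difference of all genes from -0.079 to 0.036, gave 7 members higher (1.85% of all genes), with 219 higher and 116 lower genes in all where the model without scaling gave 24 and 24. The members' median was 0.83 under that scaling. The length and GC correction also gave 7 (1.52% of all genes), and the robust form of limma 0.

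The comparison of AngII+PGE1 with saline placed the treated hearts against untreated ones. No member passed, and in all 2 of 11902 genes did, both lower (0.0168%, with 0.00% higher). The members' median difference was -0.075, close to the -0.07 of all tested genes, and 25 differences were negative, as were 66.0% over all genes. At an unadjusted p under 0.05, 2 members were higher and 0 lower, against 1.12% and 3.12% of all genes. A p that misses the threshold does not show that the levels were alike: the standard errors of the members ran from 0.14 to 0.33 on the log2 scale. The 2 members at an unadjusted p under 0.05 were Bdh1 and Idh2. Bdh1 was at 24.5 ± 8.91 FPKM (SD, n = 3) in saline and 51.2 ± 22.0 (SD, n = 3) with AngII and PGE1, a difference of 1.02 (SE 0.33, limma adjusted p = 1.0), and AngII+PGE1 1, at 32.66 FPKM, lay below saline 2, at 33.37. Idh2 was at 1748.82, 1368.63 and 1522.51 FPKM with AngII and PGE1, against 1021.44, 1161.39 and 1029.17 in saline. It was the only member whose AngII+PGE1 libraries all lay above the saline libraries, which held for 2.30% of all genes (log2 difference 0.53, SE 0.21, limma adjusted p = 1.0), and the same libraries lay above the AngII libraries (961.37, 688.13 and 1093.54 FPKM; log2 difference 0.78, SE 0.21, limma adjusted p = 0.0649).

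The members with the next smallest p in this comparison had negative differences. Sucla2 was at 172.02, 144.56 and 76.99 FPKM with AngII and PGE1, against 131.37 to 213.17 in saline (log2 difference -0.51, SE 0.29, limma adjusted p = 1.0). AngII+PGE1 3 was in the AngII range, and without it the difference was -0.16. Suclg2, the alternative beta subunit, was highest of its group in that same library, at 54.35 FPKM, and the shared alpha subunit Suclg1 was at 262.86 FPKM there, between its levels in the other two. The log2 ratio of Sucla2 to Suclg2 was 1.97, 1.66 and 0.50 in the 3 AngII+PGE1 libraries and between 1.44 and 1.85 in the other 6. Fh1, at 332.38, 204.42 and 247.85 FPKM with AngII and PGE1, differed from saline by -0.26 (limma adjusted p = 1.0), Suclg1 by -0.17 and Idh3b by -0.15 (limma adjusted p = 1.0 and 1.0). Mdh2 was the only member whose AngII+PGE1 libraries all lay below the saline libraries, at 1192.88 to 1388.26 against 1405.33 to 1477.76 FPKM, which held for 7.89% of all genes.

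Further genes of the same pathway, from a list of 48 that leaves out the members, were also lower with AngII in part. Of the 43 tested, 6 fell and 0 rose with AngII, where 1.80% of all genes were called lower, 37 had a negative difference, against 49.9% of all genes, and the median was -0.50. Acat1, the mitochondrial acetoacetyl-CoA thiolase that completes ketone oxidation after Oxct1, was at 182.75, 151.67 and 180.73 FPKM in saline, 98.32, 87.48 and 97.26 with AngII and 179.71, 160.38 and 173.64 with AngII and PGE1. It fell with AngII (log2 difference -0.85, SE 0.14, limma adjusted p = 0.0392) and was the one pathway gene that rose with added PGE1 (log2 difference 0.85, SE 0.14, limma adjusted p = 0.0452). Also among those that fell were Pdk4, an inhibitory kinase of pyruvate dehydrogenase (-2.14), Pdp2, one of its activating phosphatases (-0.94), the carnitine acetyltransferase Crat (-0.89) and the aspartate-glutamate carrier Slc25a13 of the malate-aspartate shuttle (-0.86), with limma adjusted p between 0.0411 and 0.0471. These calls were lost in 7 (Acat1) to 11 (Crat) of 17 alternatives, most of them single libraries left out, with limma adjusted p up to 0.237. The call of Acat1 with added PGE1 was lost in 9 of 17, with limma adjusted p from 0.0117 to 0.182. The 3 pathway genes of next smallest p with added PGE1, the acetyl-CoA synthetase Acss1, the 2-oxoglutarate carrier Slc25a11 and the pyruvate carrier subunit Mpc1, differed by 1.53, 0.71 and 0.76 (limma adjusted p = 0.0557, 0.0557 and 0.059). In AngII+PGE1 against saline 0 of the 43 passed.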

How the data were processed

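The study measured messenger RNA of mouse hearts in 9 libraries. RNA was isolated with Trizol, selected on oligo(dT) beads and read from one end on the BGISEQ-500 platform, per the labels' protocols. The authors deposited FPKM values, without a header naming the unit, which was read from the values: column sums differed by a ratio of 1.26, sums of value times transcript length by 1.02. The build mm9 and the tools RSEM 1.2.12, Bowtie2 2.2.5 and HISAT2 2.0.4 were named, with no role, per the submitters' processing notes; annotation and use of strand are not given in the sources used here. Because FPKM is relative to the reads on genes, very abundant transcripts lower all other values. No counts were at hand, so the planned count tests did not apply; reads per library are an approximate estimate from the spacing of low values and entered no test.

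Column names show the group only. A gene was tested if 3 or more libraries reached 1 FPKM, as log2(FPKM + 1), which understates changes of low genes, in 1 limma model (3.58.1, R 4.3.3) fitting group means with a variance trend and Benjamini-Hochberg adjustment over all genes; the script was tested on simulated data. SDs are over the 3 libraries of a group. The members and lists were chosen with earlier results of these data known. Levels and tests are given for members past the threshold, at least 6 per comparison by smallest p, and those opposite to the members' median by more than 0.3; of the pathway and regulator lists, genes past the threshold or the 4 of smallest p, except for a result that is not reported here. Transcript length and GC content came from GENCODE vM21, with values for 98.43% of tested genes. Start-region sequences are RefSeq's on GRCm38.p6, another build than mm9, so no other coordinates are given. Alternatives were leaving out each library, fitting only the 2 compared groups, robust limma, median-ratio scaling, quantile normalization, a pseudocount of 0.1, a floor of 5 FPKM, none at all and, chosen after seeing the data, a correction for length and GC content.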

Additional observations from a re-analysis of the deposited data

How the results depend on the processing

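For AngII against saline, the number of members lower, 9, was 1 without a filter, 4 with median-ratio scaling (Suclg1, Sdha, Sdhd and Mdh1), 5 with only the 2 groups in the model, and between 7 and 12 under the other settings that kept all libraries; it was 0 to 22 when 1 library was left out, and the number higher, 0, was 0 to 1. The members' median was -0.99 to -0.65 when 1 library was left out. For AngII+PGE1 against AngII, the number higher, 0, was 7 with median-ratio scaling, 7 with the length and GC correction, 10 with only the 2 groups in the model and 0 to 18 when 1 library was left out; the median of 0.70 became 0.83 with median-ratio scaling. For AngII+PGE1 against saline no setting gave a member past the threshold, and the median, -0.075, was -0.19 to 0.027 when 1 library was left out. Over all genes the counts were 156 higher and 214 lower with AngII, 44 and 44 without a filter, 0 and 0 without saline 1, 156 and 200 with median-ratio scaling, 162 and 103 with only the 2 groups in the model, and 2126 and 2386 without saline 2. The cause of these moves was not tested, beyond the construction of each setting. Of the 31 members, 29 kept their sign in every setting for AngII against saline (not Me2 and Sdhb), 26 for AngII+PGE1 against AngII (not Bdh1, Fh1, Idh3g, Me2 and Sdhb) and 11 for AngII+PGE1 against saline. No paired analysis was possible because the table's columns carry no replicate number that matches the labels. DESeq2 and edgeR were not run, since there are no counts. The FPKM values come with no estimate of counting error, and 3 libraries a group limit the precision.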

Other observations

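None of 16 regulators of mitochondrial gene expression passed the threshold in the 3 comparisons as fitted, and some did under alternatives. The coactivator gene Ppargc1a, a driver of mitochondrial biogenesis, was at 14.95, 23.71 and 18.73 FPKM in saline and 21.31, 18.42 and 21.57 with AngII, with overlapping groups (log2 difference 0.11, limma adjusted p = 0.752), and the estrogen-related receptor gene Esrra was at 76 to 85.27 and 70.95 to 83.82 FPKM (-0.04, limma adjusted p = 0.844). These 2 were chosen after their values were seen. The list's 4 genes of smallest p for AngII against saline were the retinoid receptor gene Rxra (log2 difference -1.04, SE 0.24, limma adjusted p = 0.0503), Tfam, whose protein binds mitochondrial DNA (log2 difference -0.59, SE 0.15, limma adjusted p = 0.0602), Ppargc1b (log2 difference 0.53, SE 0.19, limma adjusted p = 0.0968) and the fatty acid sensor Ppara (log2 difference -0.51, SE 0.22, limma adjusted p = 0.124). Rxra was at 26.37, 14 and 27.23 FPKM in saline and 10.57, 9.17 and 10.3 with AngII, and Tfam at 17.24, 13.14 and 16.21 and 8.75, 10.27 and 10.8, so that in both genes the AngII libraries lay below the saline libraries. That order held for 15.8% of all genes. Both genes were named for their small p in this comparison, so the order adds nothing to the tests. With added PGE1 the 4 of smallest p were Esrrb, Rxra, Tfam and Ppara, which differed from AngII by 0.86, 0.90, 0.55 and 0.75 (limma adjusted p = 0.0596, 0.0653, 0.0679 and 0.0705). The median difference of the 16 was -0.10 for AngII against saline and 0.052 for AngII+PGE1 against AngII. At an unadjusted p under 0.05, 1 regulator was higher and 3 lower for AngII against saline, where 17.0% and 18.1% of all genes were. For AngII+PGE1 against AngII 4 were higher and 3 lower, where 13.1% and 20.5% of all genes were. Under the 17 alternatives Rxra passed in 5 for AngII against saline, among them a floor of 5 FPKM, quantile normalization and the length and GC correction (limma adjusted p from 0.00298 to 0.237), Tfam in 2, and Ppargc1b and Ppara in 1 each. With added PGE1 Esrrb passed in 4, Rxra and Ppara in 3 each and Tfam in 2.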
